A study of Mus musculus with 2 samples.

Results

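The genes described here are 9 C-type lectins of macrophages: Clec4d, Clec4e, Clec4n, Clec4a1, Clec4a2, Clec4a3, Clec4b1, Clec7a and Clec12a. They were taken by gene symbol from the feature tables, which list 31053 genes. Of the 9, 8 had a row there and UMIs (unique molecular identifiers, each standing for 1 captured transcript) in both libraries. Clec7a, which encodes Dectin-1, had no row in those tables and is not analysed here. GENCODE M21 types Clec7a as a polymorphic pseudogene, and 0 of the 82 genes of that type had a row. The set was selected on measured values of these same libraries, because several members differed between the diets, so every HFD against CD value below is a description and none carries a test.

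The cells were CD45+Lin-Ly6Clow/-F4/80+ macrophages sorted from the epididymal adipose tissue (AT) of male C57/BL6 mice, where the lineage (Lin) markers include TCRb, SiglecF and Ly6G. Mice of 1 group were kept on control chow diet (CD) and mice of the other were fed a high-fat diet (HFD) overnight, and the labels name no genetic change. The labels give no age. Each diet was 1 library of cells pooled from 3 mice, so the spread between mice cannot be seen and diet and library cannot be told apart. All intervals are 95% and cover counting error only. Cells with 200 to 3500 genes and at most 10% mitochondrial UMIs were kept, which left 2364 of 4459 CD barcodes and 2021 of 3163 HFD barcodes. The CD cells were deeper, with a median of 4490.5 UMIs against 2792 in HFD. Cells with under 1000 genes made up 14.4% of the kept CD cells and 40.8% of the kept HFD cells. Of all barcodes, 14 occurred in both libraries, 7 of them among kept cells. All 9 macrophage markers examined were detected in both libraries, at 22740 UMIs per 1000000 (counts per 1000000 UMIs of the same cells, CPM) in CD and 24486 in HFD. Lyz2 made up 154346 of these 279342 UMIs in CD and 146332 of 198007 in HFD. Other markers of the list were lower in HFD, with C1qa at 3851 CPM in CD and 2074 in HFD and Mrc1 at 838 and 529. Csf1r stood at 815 and 470, Cd68 at 350 and 265, and Adgre1 at 274 and 240.

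C-type lectin receptors are membrane proteins of myeloid cells that recognise sugars, glycolipids and products of damaged cells. Clec4e (Mincle), Clec4d (MCL, also called Dectin-3) and Clec4n (Dectin-2) signal through the adaptor Fcer1g and the kinase Syk to Card9, Bcl10 and Malt1, and induce cytokines. Clec4a2 (DCIR1) and Clec12a (MICL) carry an inhibitory motif that recruits the phosphatases encoded by Ptpn6 and Ptpn11. Clec4a1 (DCIR4) and Clec4a3 (DCIR3) are relatives of DCIR1 without that motif, and Clec4b1 is a dendritic cell immunoactivating receptor of the same family. In adipose tissue Clec4e is known as a receptor of macrophages around dying adipocytes.

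The 7 Clec4 members lie in 1 cluster on chromosome 6 of the mm10 (GRCm38) genome, in the order Clec4a1, Clec4a3, Clec4b1, Clec4a2, Clec4n, Clec4d and Clec4e. By GENCODE M21, Clec4a1 starts the cluster at chr6:122921848-122934619 on the plus strand. Clec4d (chr6:123262111-123275265, plus strand) and Clec4e (chr6:123281789-123289870, minus strand) are its last pair, point towards each other and are 6523 bases apart. Clec4n (chr6:123229843-123247021, plus strand) ends 15089 bases before Clec4d. Clec12a (chr6:129342691-129365303, plus strand) and Clec7a (chr6:129461591-129472779, minus strand) lie 6052820 bases or more beyond Clec4e. Over the last 500 bases of their annotated transcripts, the end that this assay reads, 1 of 66 pairs among the members and the neighbours Clec4a4, Clec4b2 and Clec12b shared any 50-base stretch. That pair was Clec4a2 and Clec4b1, with 68 shared stretches, so part of their counts could have been split between them or lost.

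The sequences before the transcription start are shown for the adjacent Clec4d and Clec4e, which were higher in HFD, and for Clec4a1 and Clec4b1, cluster members that were not. Each is the 250 bases before the RefSeq start (GRCm38.p6), on the strand of the gene. Capitals mark matches on either strand to 3 sets of letters, TGANTCA for AP-1, TTGCNNAA for C/EBP and GAGGAA for PU.1, and no matches overlapped in these windows.
Clec4d (chr6:123261857-123262106, plus strand): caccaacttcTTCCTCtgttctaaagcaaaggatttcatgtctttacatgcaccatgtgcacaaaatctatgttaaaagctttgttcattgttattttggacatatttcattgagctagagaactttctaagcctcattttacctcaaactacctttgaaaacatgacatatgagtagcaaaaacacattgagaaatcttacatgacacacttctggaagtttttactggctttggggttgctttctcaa
Clec4e (chr6:123289872-123290121, minus strand): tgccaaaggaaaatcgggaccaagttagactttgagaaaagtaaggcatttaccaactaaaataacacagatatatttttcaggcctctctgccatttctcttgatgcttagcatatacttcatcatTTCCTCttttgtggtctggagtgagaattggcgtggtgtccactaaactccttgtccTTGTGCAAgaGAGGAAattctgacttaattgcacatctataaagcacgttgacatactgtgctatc
Clec4a1 (chr6:122921598-122921847, plus strand): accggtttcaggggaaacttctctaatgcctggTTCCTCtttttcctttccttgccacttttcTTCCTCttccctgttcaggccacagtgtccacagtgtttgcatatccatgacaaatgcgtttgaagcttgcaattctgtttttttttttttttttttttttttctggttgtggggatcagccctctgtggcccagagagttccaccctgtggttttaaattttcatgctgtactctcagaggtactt
Clec4b1 (chr6:123049712-123049961, plus strand): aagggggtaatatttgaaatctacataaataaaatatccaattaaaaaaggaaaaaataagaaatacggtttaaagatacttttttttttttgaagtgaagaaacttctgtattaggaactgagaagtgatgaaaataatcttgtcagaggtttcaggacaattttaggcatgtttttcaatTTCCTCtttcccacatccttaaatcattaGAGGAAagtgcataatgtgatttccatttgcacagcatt

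The PU.1 letters, those of a factor that myeloid genes depend on, stood in all 4 windows, with 1 match in Clec4d and 2 in each of the others. Of 32851 promoter windows of the same length in the table, 23.3% held them. The C/EBP letters stood in the Clec4e window, beginning at -66 from the start, and in 9.56% of all windows. No C/EBP or AP-1 letters stood in the 250 bases before Clec4d. The AP-1 letters stood in none of these 4 windows and in 6.75% of all. Windows of members not shown differed. That of Clec4a2 (chr6:123122440-123122689) held no PU.1 letters. It lies inside the gene as GENCODE places it, before a start that was found in the GENCODE transcripts. Clec4a3 held PU.1 letters in a window, at -50, but not in the other. The Clec12a window held AP-1 letters at -213, C/EBP letters at -140 and PU.1 letters at -61 and -47. This window (chr6:129349994-129350243) lies inside the gene as GENCODE places it. The start that follows it was not found in the GENCODE transcripts, so these positions hold for the RefSeq start only. The Clec7a windows held PU.1 letters. These matches describe letters only.

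In all kept cells, the 2 neighbouring genes Clec4d and Clec4e were higher in HFD than in CD, Clec12a was lower, and the other 5 measured lectins stayed within 1.5-fold. A gene counted as higher or lower where its CPM differed by at least 1.5-fold, among genes with at least 50 UMIs in both libraries together. By this rule 2 of the 8 measured members were higher, against 4.7% of the 9929 genes tested, and 1 was lower, against 8.94%. The assay counts each transcript at its 3' end, so CPM is not divided by gene length. Nothing is read from these shares, since the same comparison chose the genes. The median log2 ratio was 0.12 over the 8 members and -0.02 over all genes tested. In bulk sums such as these, fewer cells with a transcript and fewer transcripts per cell cannot be told apart, so shares of cells are given further on.

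**Figure D1:**
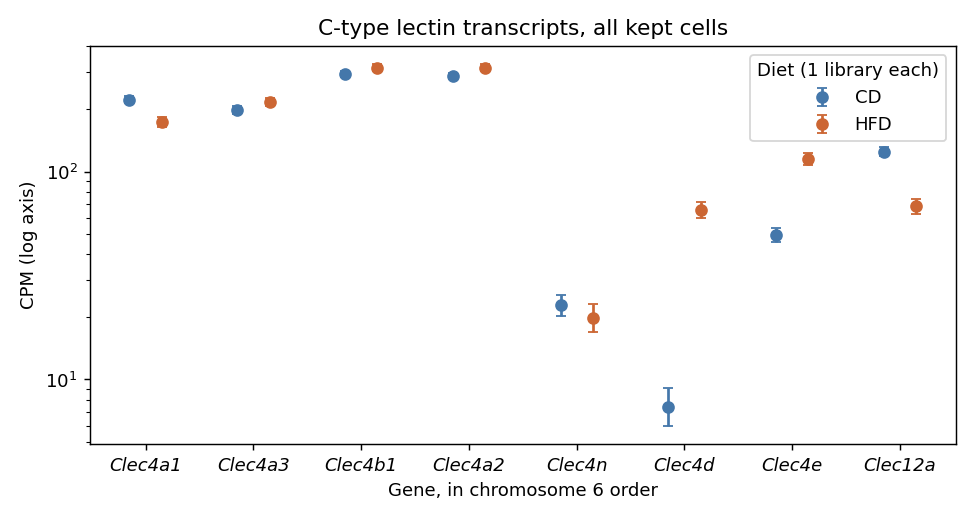
CPM (log axis) of the 8 measured lectins in all kept cells of the CD library (blue) and the HFD library (orange), with 95% Poisson intervals from counting error. Clec4d lies at 7.41 in CD and 65.3 in HFD, Clec4e at 49.5 and 115, Clec12a at 125 and 68.1, and the other members lie closer together.

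Among the receptors that signal through Fcer1g, Clec4d had 91 UMIs in CD and 528 in HFD. Its level was 7.41 CPM (5.96 to 9.10) in CD and 65.3 (59.8 to 71.1) in HFD. The log2 ratio of HFD over CD was 3.14 (2.82 to 3.48), an 8.81-fold difference and the 4th highest ratio of the 9929 genes. Clec4e had 608 UMIs in CD and 931 in HFD, or 49.5 CPM (45.6 to 53.6) against 115 (108 to 123), a log2 ratio of 1.22 (1.07 to 1.37) that ranked 82nd. Clec4n, which precedes Clec4d in the cluster and signals through the same adaptor, had 22.7 CPM (20.1 to 25.5) in CD and 19.8 (16.8 to 23.1) in HFD. Its log2 ratio of -0.20 (-0.49 to 0.09) had an interval that included 0, and was 0.35 with 800 UMIs drawn from each cell. The neighbours Clec4n, Clec4d and Clec4e therefore had 3 different ratios, and in CD Clec4d had the fewest UMIs of the 8 lectins.

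The 4 members of the DCIR and DCAR group had the most UMIs of the 8 measured members in both libraries and differed little between them. Clec4b1 had 293 CPM in CD and 316 in HFD, with a log2 ratio of 0.11 (0.04 to 0.18). Clec4a2 had 288 CPM in CD and 316 in HFD, with a log2 ratio of 0.13 (0.06 to 0.21). Clec4a3 had a log2 ratio of 0.13 (0.04 to 0.22), from 198 CPM in CD and 217 in HFD. Clec4a1 stood on the other side, at 222 CPM in CD and 174 in HFD, a log2 ratio of -0.35 (-0.45 to -0.26). Each of these 4 intervals left out 0 and stayed inside 1.5-fold. The sign for Clec4b1 depended on the processing, since its log2 ratio was -0.06 as a mean over cells.

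Clec12a, the inhibitory receptor encoded outside the Clec4 cluster, had 1530 UMIs in CD and 551 in HFD. Its level was 125 CPM (118 to 131) in CD and 68.1 (62.6 to 74.1) in HFD, a log2 ratio of -0.87 (-1.01 to -0.73). The other inhibitory receptor, Clec4a2, stood at 0.13, as above. The neighbours that were not among the members had too few UMIs to compare: Clec4a4 had 8 in CD and 6 in HFD, and Clec4b2 had 1 in each.

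The diets differed in the make-up and depth of their cells, so the ratios were computed again inside classes of cells set by marker UMIs. A cell was Lyve1+ with at least 1 Lyve1 UMI (resident macrophages carry this hyaluronan receptor), Folr2+Lyve1- with a Folr2 UMI and no Lyve1 UMI, and Ccr2+, Plac8+ or Trem2+ with at least 1 UMI of that gene. Ccr2 and Plac8 are expressed by monocytes and their recent progeny, and Trem2 by lipid-associated macrophages. The Lyz1 class held cells with at least 10 UMIs of this lysozyme. The classes overlap and are ranges of counts, not cell types. Of the Trem2+ cells, 60.5% in CD and 19.0% in HFD also had a Lyve1 UMI. Other classes shifted too. A Lyve1 UMI was present in 37.5% of CD and 13.6% of HFD Ccr2+ cells, and in 22.2% and 8.04% of the Lyz1 class. Of the Lyve1+ cells, 32.9% in CD and 7.71% in HFD had a Trem2 UMI. Ratios of HFD over CD in these classes therefore compare cells of unlike make-up. The Lyve1+ class was 49.6% of CD and 20.5% of HFD cells, the Trem2+ class 27.0% and 8.31%, the Lyz1 class 23.5% and 33.3%, and the Plac8+ class 1.78% (42 cells) and 3.61% (73 cells). These shares move with depth, which was lower in HFD, and the part of depth in them was not tested.

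**Figure D2:**
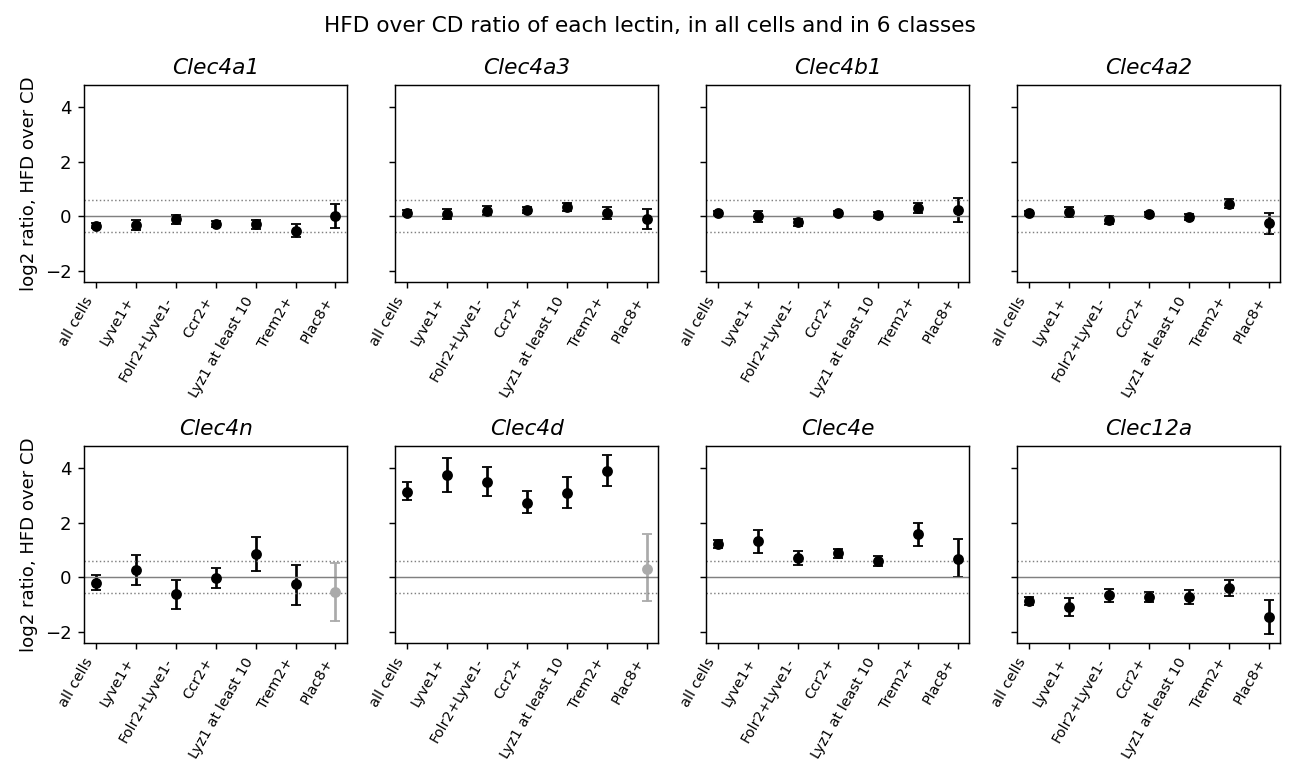
Log2 ratio of HFD over CD for each of the 8 lectins in all cells and in 6 classes, with 95% intervals from counting error. Dotted lines mark 1.5-fold, and grey points have fewer than 50 UMIs in both libraries together. Clec4d lies between 2.73 and 3.90 in 5 classes and at 0.31 in the Plac8+ class, while the points of the 4 panels in the upper row stay inside the dotted lines and some of their intervals cross them.

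Clec4d was higher in HFD in 5 of the 6 classes, and the exception was the Plac8+ class, where the CD and HFD intervals overlapped. The log2 ratio was 3.73 (3.13 to 4.37) in Lyve1+ cells, from 5.59 CPM in CD to 74.1 in HFD. It was 3.50 (2.98 to 4.06) in Folr2+Lyve1- cells, from 7.25 CPM to 81.9. In Ccr2+ cells it was 2.73 (2.33 to 3.15), from 7.13 CPM to 47.4. In the Lyz1 class it was 3.07 (2.52 to 3.67), from 6.30 CPM to 53.1. The Trem2+ cells had the highest level, 140 CPM (117 to 167) in HFD against 9.39 (6.50 to 13.1) in CD, a log2 ratio of 3.90 (3.35 to 4.49) that was 2.63 where 2 Trem2 UMIs were asked for. In the Plac8+ class, 10 UMIs in CD gave 36.6 CPM (17.6 to 67.3) and 18 UMIs in HFD gave 45.5 (27.0 to 72.0), a log2 ratio of 0.31 (-0.88 to 1.59). That value turned to -2.54 with classes set on 800 UMIs per cell, so no direction is read from it. Below the Trem2+ cells, the HFD levels of the Folr2+Lyve1- and Lyve1+ classes had overlapping intervals, as did those of the Lyz1, Ccr2+ and Plac8+ classes. The Plac8+ interval also overlapped those of the Folr2+Lyve1- and Lyve1+ classes, and the classes share cells.

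With each cell placed in 1 class, the log2 ratio of Clec4d was -0.16 in Plac8+ cells and 3.14 in the Lyz1 class. Their difference of -3.30 (-4.71 to -1.89) rests on 9 CD and 12 HFD UMIs in Plac8+ cells and 20 CD UMIs in the Lyz1 class. Set against the Lyz1 class in the same way, the difference was 0.96 (-0.22 to 2.14) in Lyve1+ and 0.76 (-0.10 to 1.62) in Trem2+ cells. Both of these intervals included 0. Stromal markers summed to 1922 CPM in the CD Plac8+ class, with all 525 UMIs in 1 of its 42 cells, and to 5.06 in the HFD one. Without every cell that had a UMI of a marker of another cell type, 21 CD Plac8+ cells held 4 Clec4d UMIs, or 30.5 CPM, and 51 HFD cells held 11, or 40.3 CPM.

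Clec4e was at least 1.5-fold higher in HFD in all 6 classes, with log2 ratios that differed between them. The ratio was 1.58 (1.15 to 2.0) in Trem2+ cells and 1.32 (0.90 to 1.74) in Lyve1+ cells. It was 0.88 (0.72 to 1.04) in Ccr2+ cells, 0.71 (0.46 to 0.96) in Folr2+Lyve1- cells (-0.14 after thinning each cell to 800 UMIs) and 0.67 (-0.01 to 1.40) in Plac8+ cells. In the Lyz1 class it was 0.59 (0.41 to 0.76), a 1.504-fold difference at the edge of the rule, from 95.8 CPM in CD to 144 in HFD. With each cell in 1 class, the ratio in Lyve1+ cells exceeded that in the Lyz1 class by 1.82 (1.08 to 2.57) on the log2 scale. That difference sets 2.26, from only 26 CD and 37 HFD UMIs, against 0.44. Over the settings tried, the Lyve1+ ratio ran from 0.87 to 2.26, so this difference uses its highest value. The Trem2+ ratio exceeded that of the Lyz1 class by 1.14 (0.69 to 1.59). For Plac8+ cells the difference from the Lyz1 class was 0.47 (-0.31 to 1.24), an interval that included 0. In CD, Clec4e stood at 23.3 CPM in Lyve1+ cells and at 30.1 in Trem2+ cells. The fold in some classes depended on the processing. The Trem2+ ratio was 0.52 with classes set on 800 UMIs per cell, the Lyz1 ratio 0.28 after thinning and the Plac8+ ratio 0.41 as a mean over cells, each under 1.5-fold.

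Clec12a was lower in HFD by at least 1.5-fold in 5 of the 6 classes. Its log2 ratio was -1.45 (-2.08 to -0.84) in Plac8+ cells, -1.08 (-1.42 to -0.76) in Lyve1+ cells, -0.74 (-1.0 to -0.49) in the Lyz1 class, -0.72 (-0.90 to -0.56) in Ccr2+ cells and -0.66 (-0.91 to -0.42) in Folr2+Lyve1- cells. In Trem2+ cells it was -0.39 (-0.69 to -0.11). The Ccr2+ value became 0.47 where each cell was placed in 1 class, which left 33 UMIs in CD and 77 in HFD. Clec4n had no common direction. It stood at 0.84 (0.24 to 1.47) in the Lyz1 class, from 37 UMIs in CD and 64 in HFD, and at -0.62 (-1.17 to -0.11) in Folr2+Lyve1- cells. The log2 ratios of Clec4a1, Clec4a2, Clec4a3 and Clec4b1 ran from -0.52 to 0.47 over the 6 classes, inside 1.5-fold. Other settings took some of them past it, to -0.82 for Clec4a2 in Plac8+ cells with classes set on 800 UMIs, and to 0.90 for Clec4a1 and 0.72 for Clec4a3 in Ccr2+ cells with each cell in 1 class. In Trem2+ cells Clec4a2 reached 0.80 with classes set on 800 UMIs, and Clec4b1 0.82 where 2 Trem2 UMIs were asked for.

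Counted by class, 2 members were higher and 1 lower in Lyve1+ cells, against 7.27% and 8.58% of the genes tested there. The counts were 2 and 2 in Folr2+Lyve1- cells (7.1% and 5.95%), 2 and 1 in Ccr2+ cells (4.17% and 8.21%) and 3 and 1 in the Lyz1 class (4.81% and 6.05%). In Plac8+ cells 6 members had enough UMIs, with 1 higher and 1 lower (8.37% and 7.96%). In Trem2+ cells 2 were higher and 0 lower (8.88% and 16.8%). The median log2 ratio over all genes tested lay between -0.05 and 0.03 in the 6 classes.

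With each cell in 1 class, each HFD class was also weighted by its share of CD cells. The log2 ratio of the mean level per cell for Clec4d then went from 3.11 to 3.45, and that for Clec4e from 1.45 to 1.11. For Clec12a it went from -0.87 to -0.66, and the other 5 members lay between -0.18 and 0.18. This weighting evens out class shares only and does not match like cells. It raised the share of Trem2+ cells, which had the highest Clec4d level in HFD, from 8.31% to 27.0%. Of these cells, 60.5% in CD and 19.0% in HFD had a Lyve1 UMI. Cells in none of the classes were 1.65% of CD and 13.1% of HFD cells.

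Cells were also split by the number of genes detected, a measure of depth. Clec4d had log2 ratios of 2.64 (1.34 to 4.31) in cells with 200 to under 1000 genes, 3.28 (2.78 to 3.81) in those with 1000 to under 2000 and 3.08 (2.63 to 3.57) in those with 2000 to 3500. For Clec4e the ratios were 2.13 (1.14 to 3.31), 1.97 (1.69 to 2.25) and 0.87 (0.68 to 1.05). In CD its level was 17.4 CPM in the range with fewest genes and 73.4 in that with most. Clec12a had log2 ratios of -1.07, -0.76 and -1.02, and Clec4a1 passed 1.5-fold in the range with most genes, at -0.64 (-0.81 to -0.47). This split was chosen after the data were seen.

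**Figure D3:**
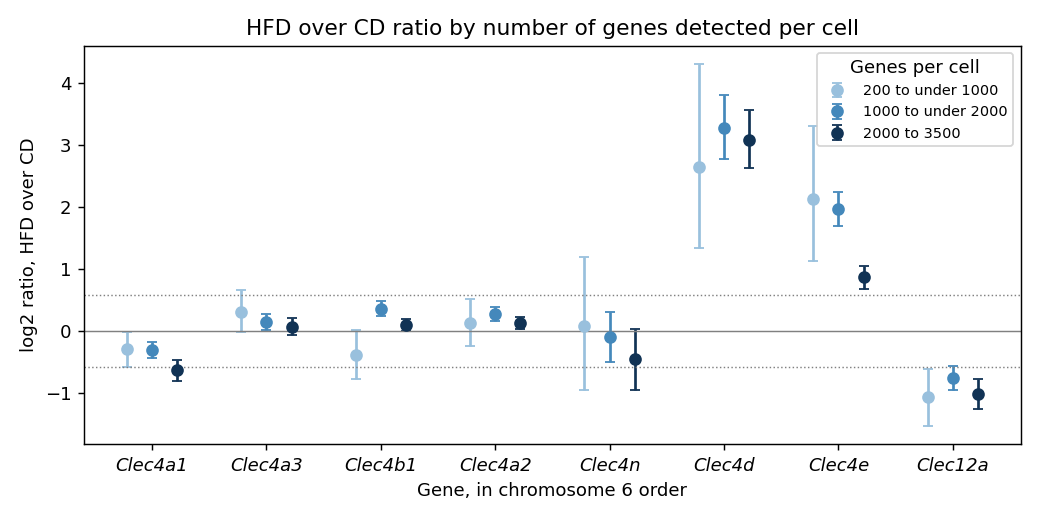
Log2 ratio of HFD over CD for each lectin in cells with 200 to under 1000, 1000 to under 2000 and 2000 to 3500 genes (light to dark), with 95% intervals from counting error; dotted lines mark 1.5-fold. Clec4d stays between 2.64 and 3.28 in the 3 ranges, while Clec4e is at 2.13, 1.97 and 0.87.

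For shares of cells with a transcript, 800 UMIs were drawn from each cell, and 30 CD and 147 HFD cells with fewer were not used. Clec4d was detected in 0.557% (0.297 to 0.951) of CD and 4.38% (3.49 to 5.40) of HFD cells, and without thinning in 2.79% and 15.2%. Clec4e was detected in 2.74% (2.12 to 3.49) and 6.03% (5.0 to 7.21), and without thinning in 11.8% and 20.8%. Clec12a went the other way, with 9.73% (8.55 to 11) in CD and 6.19% (5.14 to 7.38) in HFD. The shares of Clec4n were 1.59% and 2.13% and those of the other 4 members lay between 15.6% and 18.3% in CD and between 16.2% and 17.3% in HFD. Single HFD cells held up to 9 Clec4d UMIs, and single CD cells up to 3. Cells of other types that could show the level of free RNA numbered 4 in CD and 5 in HFD, too few for a background.

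The products of Clec4d and Clec4e can pair with each other. Among thinned HFD cells, Clec4e was seen more often with Clec4d than without. Of the 12 cells with both, 9 lay in the Lyz1 class, so the values do not show the difference outside that class. Of the 82 thinned HFD cells with Clec4d, 14.6% (7.80 to 24.2) had a Clec4e UMI, against 5.64% (4.61 to 6.81) of the 1792 without. Inside the Lyz1 class of HFD the shares were 27.3% (13.3 to 45.5) of 33 cells and 8.45% (6.41 to 10.9) of 639. In CD, 0 of the 13 cells with Clec4d had a Clec4e UMI, where the interval reaches 24.7%, against 2.76% of the others.

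The lectins also divided between the Lyz1 class and Lyve1+ cells within each library, with cells of both classes left out. These classes differ in depth as well as in markers. As whole classes, their median UMIs were 8205 (Lyz1) and 4052.5 (Lyve1+) in CD, and 6609 and 2299 in HFD. Clec4e, Clec4b1 and Clec4a2 were higher in the Lyz1 class under both diets, and Clec4a1, Clec4n and Clec12a were higher in Lyve1+ cells. In CD, 3 members were at least 1.5-fold higher in the Lyz1 class (11.2% of all genes tested) and 4 lower (28.1%). In HFD the counts were also 3 (12.8%) and 4 (27.8%). The median gene stood at -0.22 in CD and -0.19 in HFD on the log2 scale, so each member is to be read against that shift.

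**Figure D4:**
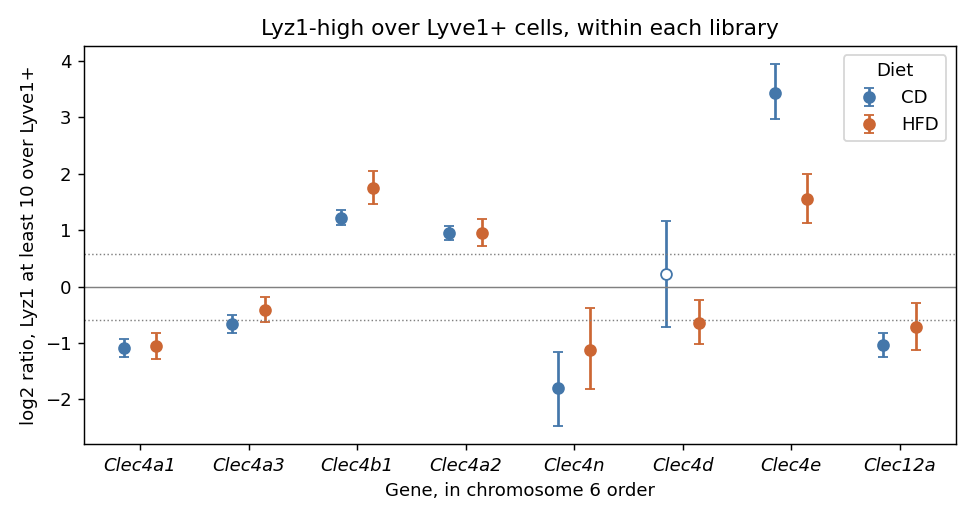
Log2 ratio of cells with at least 10 Lyz1 UMIs over Lyve1+ cells in CD (blue) and HFD (orange) for each lectin, with 95% intervals from counting error; dotted lines mark 1.5-fold and the open point has fewer than 50 UMIs. Clec4e lies at 3.43 in CD and 1.54 in HFD, and Clec4a1, Clec4n and Clec12a lie below 0 under both diets.

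In CD Clec4e had the widest division of the 8 members, with 101 CPM in the Lyz1 class and 9.33 in Lyve1+ cells, a log2 ratio of 3.43 (2.96 to 3.94). In HFD the levels were 152 and 52.2, a ratio of 1.54 (1.12 to 2.0). Clec4b1 stood at 1.22 (1.10 to 1.35) in CD and 1.75 (1.47 to 2.05) in HFD, the widest under that diet, and Clec4a2 at 0.95 in both. Clec4a1 stood at -1.09 in CD and -1.05 in HFD, Clec12a at -1.04 and -0.71, and Clec4n at -1.79 (-2.47 to -1.16) and -1.12 (-1.82 to -0.38). Clec4a3 was at -0.66 in CD and -0.41 in HFD. Clec4d had 21 UMIs on each side in CD, too few for the rule, and in HFD stood at -0.64 (-1.02 to -0.24), with 52.4 CPM in the Lyz1 class and 81.6 in Lyve1+ cells, and at 0.26 after thinning to 800 UMIs. The DCIR group thus divided by gene, with Clec4a2 on the side of Clec4e and Clec4a1 on that of Clec12a.

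The likeness of patterns was measured over 14 values per gene, 7 non-overlapping classes in each library, as the Pearson correlation of log2(CPM + 10), among 7094 genes with at least 200 UMIs. The points share libraries and depth, so the values only describe. Most like Clec4d were Plin2 (0.91), which coats lipid droplets, then H2-D1, Pla2g7, Ifrd1 and Mettl23 (0.89 to 0.85). The CD levels of Clec4d lay below the added 10 CPM in every class but Plac8+, where 9 UMIs gave 43.7 CPM. Its pattern therefore holds the difference between the diets by which the set was chosen. Plin2 also had more UMIs in HFD, with 4299 in CD and 8340 in HFD. Most like Clec4e were Cdk2ap2 (0.93), Ptger2, Adssl1, Rgs1 and Lyz2. Clec4a2 was nearest to Vdac2 (0.95). The nearest genes were Epn1 for Clec4a1 (0.93), Rpl36a for Clec4b1 (0.94), Fiz1 for Clec4n (0.84) and Ywhaq for Clec12a (0.91). Among the members themselves the highest values were 0.71 for Clec4a2 with Clec4b1, 0.71 for Clec4a1 with Clec12a, 0.68 for Clec4a1 with Clec4a3 and 0.67 for Clec4d with Clec4e.

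The other genes of the pathway were read from fixed lists in all cells. Of 18 signalling genes, 0 were at least 1.5-fold higher and 0 lower (4.7% and 8.94% of all genes tested), with a median log2 ratio of 0.13. Fcer1g, the shared adaptor, had 2599 CPM in CD and 2071 in HFD, and Syk had 121 and 151. Of 10 tested output genes out of 12, 4 were higher and 0 lower, read against the same 2 shares. These were Ptgs2, the inducible prostaglandin synthase, at 1.96 (1.72 to 2.20), the cytokine Il6 at 0.81 (0.70 to 0.92), and the chemokines Cxcl2 at 0.65 (0.62 to 0.68) and Ccl3 at 0.59 (0.46 to 0.72). The classes were not alike. Il6 stood at -0.01 in Folr2+Lyve1-, 0.37 in the Lyz1 class and -0.40 in Plac8+ cells, and passed 1.5-fold in Lyve1+, Ccr2+ and Trem2+ cells. Cxcl2 was inside 1.5-fold in Ccr2+ (0.46), Folr2+Lyve1- (0.41) and Lyz1 (0.32) cells and past it in Lyve1+, Plac8+ and Trem2+ cells. Ccl3 was inside it in Plac8+ and Trem2+ cells. Il10, which was within 1.5-fold in all cells, was lower in Ccr2+ cells at -0.64. It was higher in Lyve1+ cells, at 13.4 CPM in CD and 26.9 in HFD, and in Folr2+Lyve1- cells, at 8.05 and 15.1. These genes answer to many receptors besides the lectins.

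Of 17 further C-type lectins, 16 had a row and 7 enough UMIs, and in all cells 0 of these were higher in HFD while 4 were lower, against 4.7% and 8.94% of all genes tested. Mgl2 (CD301b) had a log2 ratio of -1.24 (-1.31 to -1.18), Mrc1, the mannose receptor CD206, -0.66 (-0.72 to -0.61), and Clec10a (CD301a) -0.63 (-0.69 to -0.56). Within Folr2+Lyve1- cells Mrc1 stood at 0.04 and Clec10a at 0.09, and within Lyve1+ cells at -0.33 and -0.21, all inside 1.5-fold. Both were lower past 1.5-fold in Ccr2+ cells, Mrc1 at -0.69 and Clec10a at -0.72, and in Trem2+ cells, at -1.02 and -0.99. In the Lyz1 and Plac8+ classes both stayed inside 1.5-fold. Mgl2 was lower past 1.5-fold in every class but Plac8+, where it stood at -0.09. Clec5a, a receptor that signals through Tyrobp, had 150 UMIs in CD and 31 in HFD and a log2 ratio of -1.67 (-2.28 to -1.11). Clec2d stood at 0.30 (0.17 to 0.44) in all cells and at 0.90 (0.67 to 1.13) in Folr2+Lyve1- cells, where it was past 1.5-fold. Outside the list, and chosen after their values were seen, Clec2g was higher at 1.24 (0.48 to 2.03), from 25 UMIs in CD and 39 in HFD, and Clec3b lower at -2.53 (-3.79 to -1.47), from 70 and 8. The sum of the stromal markers was lower in HFD as well, at 71.1 CPM in CD and 4.2 in HFD. The part of stromal cells in the Clec3b counts was not tested.

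Neutrophils also express Clec4d and Clec4e. The 7 neutrophil markers summed to 15.9 CPM in CD and 8.41 in HFD, with Ly6g at 0 in both and S100a9 at 0 in HFD. In Trem2+ cells their sum was 9.94 in CD and 17.3 in HFD, and in Plac8+ cells 14.6 and 20.2. The 5 monocyte markers, Plac8 among them, summed to 54.3 in CD and 130 in HFD. Most of this sum lay in the Plac8+ class, with 471 of 667 UMIs in CD and 882 of 1050 in HFD. Every Plac8 UMI lies in that class by definition, so these shares do not show where the other monocyte markers lie. Ly6c2, also a marker in that sum, went the other way from it, at 11.1 CPM in CD and 8.78 in HFD. Over the 6 dendritic cell markers the sums were 205 and 179, over the 3 adipocyte markers 54.0 and 30.2, and over the 4 stromal markers 71.1 and 4.2. The 3 erythroid markers summed to 790 and 881 but were spread differently, with a UMI in 24.7% of CD and 7.32% of HFD cells. In Trem2+ cells the erythroid sum was 1976 in CD and 16.2 in HFD. Over all kept cells, endothelial, B cell, T or NK cell, mesothelial and peritoneal macrophage markers each stayed at 15.2 or below. The endothelial sum was above that in CD Trem2+ cells, at 19.9, and in CD Plac8+ cells, at 25.6 from 7 UMIs. By class, the monocyte sum was 37.8 in CD and 238 in HFD in Trem2+ cells, 18.6 and 55.2 in Lyve1+ cells and 60.4 and 159.8 in Ccr2+ cells. It was 79.1 and 75.0 in Folr2+Lyve1- cells and 25.0 and 27.0 in the Lyz1 class. The part of monocytes and neutrophils in the lectin levels was not tested.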

How the data were processed

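Single-cell 3' transcript libraries (10x Genomics Chromium, V2 kit) were made from sorted epididymal macrophages. The authors aligned reads to mm10 (Ensembl 93) with Cell Ranger 3.0.2 and deposited raw UMI counts per gene and barcode, which were used here as deposited. Every column was used.

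Cells with 200 to 3500 genes and at most 10% mitochondrial UMIs were kept. No doublet caller was run. UMIs were summed per library and class and divided by all UMIs of those cells (CPM, computed here). Levels carry exact Poisson intervals, log2 ratios exact conditional binomial intervals, shares Clopper-Pearson intervals, and differences of log2 ratios between classes normal-approximation intervals. With 1 library per diet no test was possible. Cells are not replicates, and reads of 3 pooled mice cannot be separated. Genes named are all members, pathway genes past 1.5-fold with at least 50 UMIs, and the 5 genes most like each member, of which some are given. The members and lists were chosen with earlier results of these data known. Analyses used Python 3.11.15, numpy 2.4.6 and scipy 1.17.1, and were tested on simulated data. Positions are from GENCODE M21 and promoters from RefSeq, where 8 of 9 members had a window. The start after the Clec12a window was not found in the GENCODE transcripts. The gene nearest in pattern to Clec4a3 is not reported here.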

Additional observations from a re-analysis of the deposited data

Results flagged for a closer look

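Cells with over 10% mitochondrial UMIs, 2043 in CD and 1120 in HFD, were outside the comparisons. In those of HFD, 3 members had a level above that of the same cells in CD with an interval of the ratio that left out 0. Clec4d stood at 63.5 CPM in HFD and 6.68 in CD, a log2 ratio of 3.25 (2.42 to 4.17). Clec4e stood at 210.4 in HFD and 43.2 in CD, a log2 ratio of 2.28 (1.93 to 2.65). Clec4n, which had no such difference in the kept cells, stood at 28.1 from 27 UMIs in HFD and 11.6 from 26 UMIs in CD, a log2 ratio of 1.28 (0.45 to 2.11). Clec4a2 stood at 152 in HFD and 127 in CD, a log2 ratio of 0.26 (-0.04 to 0.55). Clec12a was at 51.0 in HFD and 120 in CD there.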

How the results depend on the processing

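Each choice was changed alone. In all cells the count of 2 higher members held under every alternative run. Under the planned ones the log2 ratio of Clec4d stayed between 2.92 and 3.34, that of Clec4e between 1.11 and 1.45 and that of Clec12a between -0.89 and -0.58. In the 3 ranges of genes per cell, chosen after seeing the data, they ran from 2.64 to 3.28, from 0.87 to 2.13 and from -1.07 to -0.76. Of the counts of members past the threshold, 255 of the planned ones stayed within 1.5 times the reported count and 45 did not. The share of all genes past the threshold was computed only for the settings reported above. The counts under other settings therefore show only whether a count held, and nothing else about the members is read from them.

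With levels from cells thinned to 800 UMIs, 0 members were lower in all cells, 0 higher in Lyve1+, 0 higher and 1 lower in Folr2+Lyve1-, 0 lower in Ccr2+, 1 higher and 0 lower in the Lyz1 class, 0 higher and 0 lower in Plac8+, 1 higher in Trem2+, and 0 lower in the Lyz1 class than in Lyve1+ cells of HFD. These counts ask for 50 UMIs, which thinning can take away: the log2 ratio of Clec4d in Lyve1+ cells stayed between 3.52 and 4.28 under all 14 settings tried. Clec4e in Folr2+Lyve1- cells turned to -0.14, and Clec4d in the Lyz1 class over Lyve1+ cells of HFD to 0.26. With classes set on 800 UMIs, 0 were higher in Lyve1+, 0 lower in Ccr2+, 1 higher in the Lyz1 class, 0 higher in Plac8+, 1 higher and 1 lower in Trem2+, and 2 (CD) and 1 (HFD) lower in the Lyz1 class than in Lyve1+ cells.

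At 2-fold, 0 were lower in all cells, 1 higher and 0 lower in Folr2+Lyve1-, 1 higher and 0 lower in Ccr2+, 1 higher and 0 lower in the Lyz1 class, 0 higher in Plac8+, and 2 lower in the Lyz1 class than in Lyve1+ cells of HFD. With 2 UMIs for a class (20 for Lyz1), 0 were higher and 2 lower in Plac8+, and 4 higher and 1 lower in Trem2+. With 1 class per cell, 0 were lower in Ccr2+, where Clec12a turned to 0.47, and 2 lower in Plac8+. With the mean over cells, 0 were lower in the Lyz1 class, 0 higher in Plac8+, and 2 lower in the Lyz1 class than in Lyve1+ cells of HFD, as also (2) after centring on the median ratio.

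In Folr2+Lyve1- cells, 1 member was lower at most 5% and 1 at most 20% mitochondrial UMIs, 0 with at least 1000 genes and 1 without cells with markers of other types, and 1 was higher without the 5% of cells with most UMIs. In Plac8+ cells, 0 were higher at most 5% mitochondrial UMIs and 0 lower without cells with markers of other types. In cells with 2000 to 3500 genes, a split chosen after seeing the data, 2 were lower. Shares of cells moved with depth: with 1500 UMIs drawn per cell Clec4d was detected in 1.13% of CD and 7.80% of HFD cells. The cause of these differences was not tested. No paired analysis was possible because each diet had 1 library, and leaving out a replicate was not possible for the same reason.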

Other observations

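Cells that fell in none of the classes numbered 39 in CD and 264 in HFD, with median counts of 1190 and 1003 UMIs. In those of HFD, Clec4d stood at 109 CPM (77.8 to 150) and Clec4e at 104 (73.1 to 143). In CD both were at 0 UMIs, where the interval reaches 58.5 CPM. Clec4a1 stood at 317 in these CD cells and 196 in these HFD cells.

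The largest number of Clec4n UMIs in a single CD cell was 17, out of 279 in the library, and the largest in a single HFD cell was 4. For Clec4a2 the largest numbers were 23 and 27.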
